A study of Mus musculus with 16 samples.

Results

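T cell receptor variable (V) segments are the genes Trav, Trbv, Trgv and Trdv that encode the antigen-facing end of the alpha, beta, gamma and delta chains. They were taken as every gene whose symbol matched those 4 stems followed by a digit, which gave 170 of 47311 annotated genes with transcripts in the tables: 128 Trav, 35 Trbv, 6 Trdv and 1 Trgv. Of the 170, 136 were annotated as functional V genes and 34 as V pseudogenes. The values were estimated reads summed per gene in 16 bulk mammary tumours, 8 treated with anti-PD-1 and 8 with the IgG2a isotype control, at 200 ug of antibody per mouse. All mice were female C57BL/6J on a high-fat diet (60% of energy as fat) between weeks 8 and 26 of life, and all tumours grew from 250000 E0771-luciferase cells, a mouse mammary cancer line with a luciferase reporter, placed in mammary gland 4. Antibody was given every 3 days from day 3 after the cells until day 21, and each tumour came from a separate animal. Both groups therefore carried the same transplanted line, whose reporter is foreign to the host, and no tumour from a lean mouse was compared here.

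Each developing T cell joins 1 V segment of a chain to joining segments, with a diversity segment between them in beta and delta chains, and the joined exon is spliced to a constant segment. Because a T cell and its daughters carry the same joined segments, the V segments read in a tissue describe which receptors its T cells bear. Most T cells carry an alpha-beta receptor that recognises peptides held by MHC proteins, and a smaller lineage carries a gamma-delta receptor. PD-1 is an inhibitory receptor of activated T cells, and the comparison asks whether its blockade went with another use of these segments.

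The sequences shown are the last 150 coding bases of the segments on which the values below turn, from the GENCODE vM21 transcripts of GRCm38, 5′ to 3′ on the strand of the gene. The capitals run from the last in-frame cysteine codon, which opens the variable loop that contacts antigen, to the end of the germline segment, where joining takes place. Trbv16 and Trbv14 held the most beta-chain reads, at chr6:41151740-41152230 and chr6:41135145-41135616, both on the plus strand. Trdv4, at chr14:54074905-54075515 on the plus strand, held most reads of the genes with a Trdv symbol. Trgv2, at chr13:19336573-19337167 on the minus strand, was the gene with a Trgv symbol. Trav11d, at chr14:52824357-52824912 on the plus strand, is shown because Trav11, the alpha segment of invariant natural killer T cells, matched it at 100% over 342 bases.

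Trbv16: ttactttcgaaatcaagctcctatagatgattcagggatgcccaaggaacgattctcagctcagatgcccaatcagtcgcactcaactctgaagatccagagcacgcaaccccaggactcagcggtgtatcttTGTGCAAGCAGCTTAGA
Trbv14: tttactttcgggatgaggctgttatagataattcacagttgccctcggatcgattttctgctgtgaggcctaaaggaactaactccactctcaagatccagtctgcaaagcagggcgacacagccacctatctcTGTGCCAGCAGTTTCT
Trdv4: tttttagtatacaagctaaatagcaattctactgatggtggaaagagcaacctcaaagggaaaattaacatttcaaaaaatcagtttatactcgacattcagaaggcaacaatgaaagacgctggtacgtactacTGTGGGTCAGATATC
Trgv2: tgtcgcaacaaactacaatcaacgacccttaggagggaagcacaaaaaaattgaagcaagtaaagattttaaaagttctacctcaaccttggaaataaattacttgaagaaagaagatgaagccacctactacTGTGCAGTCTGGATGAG
Trav11d: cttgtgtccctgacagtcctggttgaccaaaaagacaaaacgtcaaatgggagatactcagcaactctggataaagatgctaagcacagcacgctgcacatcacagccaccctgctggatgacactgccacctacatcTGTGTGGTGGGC

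The capitals held 17 bases in Trbv16, 16 in Trbv14, 15 in Trdv4, 17 in Trgv2 and 12 in Trav11d, and the 5 whole coding sequences, of 342 to 350 bases, began with ATG and had 0 in-frame stop codons. The bases added between segments when they join are in no annotated transcript, so the values below describe segments and not whole receptors or clones.

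Few reads fell on these genes. The tables held 59036535 to 82591064 estimated reads per tumour, of which V segments took 98 to 453.6. The lowest, median and highest V reads were 123, 160.45 and 453.6 in anti-PD-1 tumours, against 98, 226.25 and 290 in IgG2a tumours. The means were 212 ± 119 reads in anti-PD-1 tumours and 216 ± 72.1 reads in IgG2a tumours (SD, n = 8 each). Per 1000000 reads of the scaled library (CPM) these were 3.11 ± 1.67 CPM in anti-PD-1 tumours and 3.12 ± 0.952 CPM in IgG2a tumours. The 2 groups overlapped, and anti-PD-1 replicate 5 lay above every other tumour. In bulk RNA, fewer T cells and less receptor RNA per T cell cannot be told apart.

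Of the 170 segments, 121 had at least 1 estimated read in some tumour, 98 of them in anti-PD-1 tumours, 108 in IgG2a tumours and 85 in both. Trbv16 alone was read in all 16 tumours, 21 segments were read in 8 or more and 23 in a single tumour. Functional genes were nearly all read in the beta locus, where 21 of 22 were detected and Trbv21 was not. In the alpha locus 90 of 108 functional segments were detected. V pseudogenes, which cannot give a receptor chain, held 20.7 reads (0.61% of the total) on 4 of 34 genes, Trav8-2, Trav22, Trav13-3 and Trbv8. Summed over tumours, Trbv held 1921.8 reads (56.15%), Trav 1208 (35.29%), Trdv 159 (4.65%) and Trgv 134 (3.91%).

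**Figure D1:**
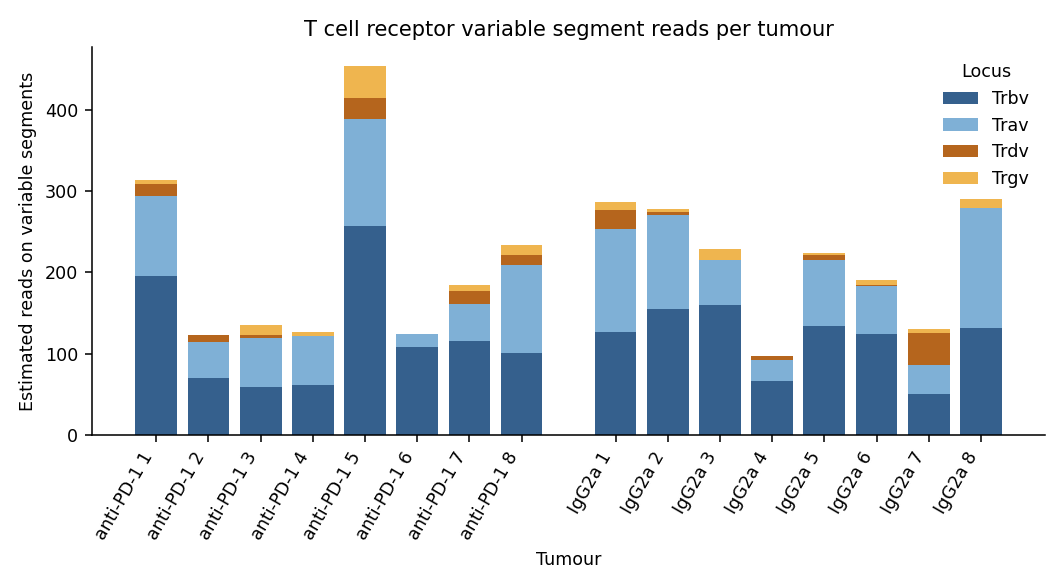
Estimated reads on V segments in each tumour (y axis) with the anti-PD-1 tumours on the left and the IgG2a tumours on the right; each bar is 1 tumour, divided by locus. Trbv and Trav make up most of every bar, the highest bar is anti-PD-1 replicate 5 at 453.6 reads, and the Trdv part is largest in IgG2a replicate 7 at 39 reads.

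Beta-chain usage was led by a few segments. Per transcript length (the authors' TPM, mean over 16 tumours), the order of Trbv levels was Trbv16 at 3.25 TPM, Trbv14 at 2.76, Trbv13-2 at 1.31, Trbv5 at 1.13, Trbv29 at 0.882, Trbv13-3 at 0.872, Trbv13-1 at 0.619 and Trbv20 at 0.532. Trbv16 had the most Trbv reads in 10 tumours, 5 of each group. Trbv14 led in 1 anti-PD-1 and 2 IgG2a tumours, while Trbv5 and Trbv13-2 led in 1 anti-PD-1 tumour each and Trbv13-1 led in 1 IgG2a tumour.

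Trbv16 reads were 59, 25, 1, 20, 13, 27, 61 and 32 in anti-PD-1 replicates 1 to 8, against 31, 68, 26, 11, 62, 6, 6 and 36 in IgG2a replicates 1 to 8. Both groups ran from a handful of reads to more than 60, and they overlapped over nearly their whole range. As a share of each tumour's Trbv reads, Trbv16 averaged 26.7 ± 16.5% in anti-PD-1 tumours and 23.86 ± 14.78% in IgG2a tumours (SD, n = 8 each). The edgeR log2 fold change, anti-PD-1 over IgG2a, was -0.033 ± 0.601 (SE, 95% interval -1.30 to 1.24, Benjamini-Hochberg adjusted p = 0.983).

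Trbv14 was read in 13 tumours. Its reads were 67, 0, 0, 1, 23, 24, 7 and 9 in anti-PD-1 replicates 1 to 8, against 5, 27, 21, 37, 12, 81, 0 and 7 in IgG2a replicates 1 to 8. The highest tumour of each group, anti-PD-1 replicate 1 and IgG2a replicate 6, stood apart from the others of its group, and 3 tumours had no Trbv14 read. In anti-PD-1 replicate 1 the 67 reads were 34.18% of the Trbv reads (95% Wilson interval 27.9 to 41.07%). In IgG2a replicate 6 the 81 reads were 65.32% (56.6 to 73.13%), and in IgG2a replicate 4 Trbv14 held 55.22% (43.36 to 66.52%). These intervals cover counting error only, since polymerase chain reaction (PCR) copies of a molecule cannot be told from separate molecules here. The log2 fold change was -0.642 ± 0.975 (SE, edgeR, 95% interval -2.70 to 1.42, adjusted p = 0.758), and it was 0.069 without IgG2a replicate 6.

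Trbv5 reads were 9, 2, 3, 0, 52.9, 12, 2 and 7 in anti-PD-1 replicates 1 to 8, against 2, 0, 19, 1, 15, 3, 9 and 0 in IgG2a replicates 1 to 8. Anti-PD-1 replicate 5 held 38.6% of all Trbv5 reads, and the other 15 tumours shared 84. Trbv5 shares 292 exonic bases, and its neighbour Trbv4 295, with the long noncoding RNA gene 5830405F06Rik on the same strand, which held 17.39 of its 26 reads in that tumour. Reads of these genes may have been divided among them. Trbv2 had a like pattern, with 30 of its 57 reads in anti-PD-1 replicate 5 and reads in 4 anti-PD-1 and 2 IgG2a tumours.

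The Trbv13 family, Trbv13-1, Trbv13-2 and Trbv13-3, had reads in all 16 tumours, as Trbv16 did. Together with Trbv29 and Trbv1 these are the beta segments that mouse invariant natural killer T cells favour, although ordinary T cells use them too. Trbv13-2 ran from 0 to 12 reads with a median of 6 in anti-PD-1 tumours, and from 3 to 13 with a median of 7.5 in IgG2a tumours. The family held 15.37 ± 11.78% of Trbv reads in anti-PD-1 tumours and 16.33 ± 7.6% in IgG2a tumours (SD, n = 8 each). Summed to 1 feature, the family had a log2 fold change of -0.379 ± 0.391 (SE, edgeR, 95% interval -1.21 to 0.447, adjusted p = 0.637). Trbv29 had 58 reads in 7 anti-PD-1 tumours and 41 in 5 IgG2a tumours, and Trbv1 had 26 in 4 anti-PD-1 tumours and 16 in 3 IgG2a tumours.

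**Figure D2:**
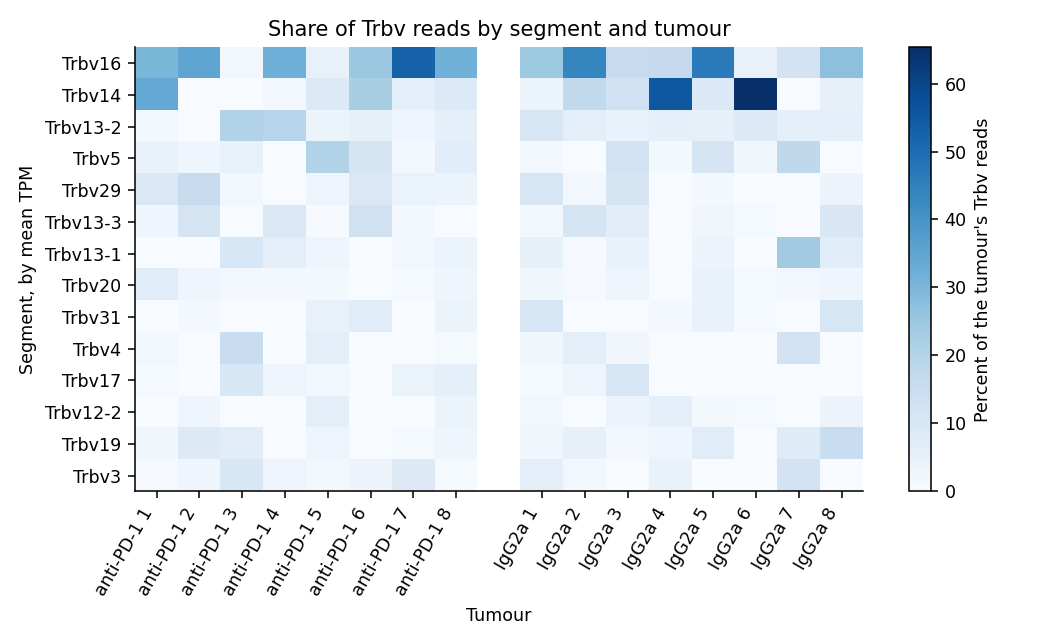
Share of each tumour's Trbv reads (colour, percent) held by the 14 Trbv segments read in 8 or more tumours, in order of mean TPM from the top; columns are single tumours, anti-PD-1 on the left and IgG2a on the right. Trbv16 is dark in most columns of both groups, and the darkest cell is Trbv14 in IgG2a replicate 6 at 65.32%.

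Alpha-chain reads were spread over many more segments. From 6 to 35 Trav segments had a read in anti-PD-1 tumours and from 8 to 38 in IgG2a tumours, with a median of 17.5 in each group. No segment led widely, since 15 different Trav segments had the most reads in some tumour, alone or, in 2 tumours, tied, and none led or tied in more than 2. Trav8n-2 had a mean of 0.637 TPM, with 37 reads in 5 anti-PD-1 tumours and 57 in 5 IgG2a tumours. The other Trav segments read in 8 or more tumours were Trav13-4-dv7 with 32 reads, Trav7-2 with 30, Trav10 with 21 and Trav12-3 with 17. Trav10 was read in 2 anti-PD-1 and 6 IgG2a tumours, and Trav12-3 likewise in 2 anti-PD-1 and 6 IgG2a tumours, at no more than 4 reads each in any tumour.

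Single tumours held large shares of some alpha segments. Trav16 had 15 reads in anti-PD-1 replicate 1, and 33 reads in IgG2a replicate 5, which was 40.74% of the Trav reads of the IgG2a tumour (Wilson interval 30.7 to 51.62%). Trav12-1 had 11 of the 25 Trav reads of IgG2a replicate 4 (44%, 26.67 to 62.93%). All 10 reads of Trav13-2 were in IgG2a replicate 7. In anti-PD-1 replicate 8 the leader was Trav4-3 with 15 reads, and in anti-PD-1 replicate 4 it was Trav8-1 with 14. In IgG2a replicate 6 the leader was Trav7-5, also with 14 reads, and in IgG2a replicate 8 it was Trav8n-2 with 27. With so few reads per tumour, a segment without reads was not detectable at this depth and is not shown to be absent.

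The mouse alpha locus holds copies of a block of segments, named with d or n, so many Trav genes nearly match each other. By blastn, 110 of the 128 Trav segments had another member at 95% identity or more over at least 80% of the shorter transcript of the pair. Those segments held 92.5% of the Trav reads. At full identity the number was 48. Among the 35 Trbv segments none had such a partner at 95% and 2 had one at 90%. Original segments held 641.3 reads (53.09% of Trav), n copies 311.8 (25.81%) and d copies 254.9 (21.1%). How reads were divided among copies decides these values: Trav11 had 0 reads and its match Trav11d 11, of which 3 were in 1 anti-PD-1 tumour and 8 in 2 IgG2a tumours. The 0 of Trav11 therefore sets no limit on its use. Trav1, the alpha segment of mucosal-associated invariant T cells, had 12 reads, all in 2 IgG2a tumours and 11 of them in IgG2a replicate 8.

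Trav9d-4 and Trav9n-4, which matched at 100% over 476 bases, show the same limit in the leading segments. Trav9d-4 had 30 reads in 4 anti-PD-1 tumours and 4 reads in 1 IgG2a tumour, whereas Trav9n-4 had 20 reads in 2 anti-PD-1 tumours and 19 in 2 IgG2a tumours. The whole Trav9 family, picked out here after its values were seen, held 26.33 ± 20.48% of Trav reads in anti-PD-1 tumours and 8.05 ± 7.94% in IgG2a tumours (SD, n = 8 each). In anti-PD-1 replicate 6 the family held 70.59% of only 17 Trav reads. Without that tumour the means were 20.01 ± 10.78% in anti-PD-1 tumours (SD, n = 7) and 8.05 ± 7.94% in IgG2a tumours, and the difference was 11.96 percentage points in place of 18.28. That family did not pass the filter on low counts as a sum, so its difference was not tested. As a single copy, Trav14n-3 ran the other way, with 1 read in 1 anti-PD-1 tumour and 22 reads in 4 IgG2a tumours. Its whole family did not: Trav14 held 5.74 ± 6.84% of Trav reads in anti-PD-1 tumours and 6.32 ± 4.45% in IgG2a tumours (SD, n = 8 each).

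Gamma-delta segments were a small part of V reads in most tumours. Trdv4, the delta segment of the fetal-type gamma-delta T cells that settle in skin and mucosa, had 142 of the 159 Trdv reads. Its reads were 14, 8, 2, 0, 24, 0, 10 and 12 in anti-PD-1 replicates 1 to 8, against 18, 3, 0, 6, 6, 2, 37 and 0 in IgG2a replicates 1 to 8. The groups overlapped, and IgG2a replicate 7 was the highest tumour. Of the others, Trdv5 had 7 reads, Trdv2-2 5, Trdv1 4, Trdv2-1 1 and Trdv3 0. Trdv5 shares 207 exonic bases with the delta constant gene Trdc on the opposite strand, and in these non-directional libraries reads of the pair cannot be told apart. Another 10 segments carry dv in a Trav symbol because they can join in both alpha and delta chains, and they were counted as Trav. Of these, 9 were read, with 52.5 reads in anti-PD-1 tumours and 57.9 in IgG2a tumours.

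Trgv2 reads were 6, 0, 13, 5, 40, 0, 8 and 13 in anti-PD-1 replicates 1 to 8, against 9, 4, 13, 0, 2, 6, 4 and 11 in IgG2a replicates 1 to 8. Anti-PD-1 replicate 5 held 40 of the 134 reads, and the other tumours lay between 0 and 13 in both groups. The annotation names the other gamma variable genes Tcrg-V1, Tcrg-V3, Tcrg-V4, Tcrg-V5, Tcrg-V6 and Tcrg-V7, which fall outside the symbol rule. They had 21, 4, 35, 2, 40 and 4 reads in that order, so Trgv2 held the most of the 7 genes. Trgv2 matched Tcrg-V1 at 95.187% and Tcrg-V3 at 94.286%, so reads may also have been divided among these 3.

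The gamma-delta share, Trgv and Trdv reads over all V reads, had a lowest, median and highest value of 0, 8.59 and 14.3% in anti-PD-1 tumours, against 2.52, 4.94 and 33.1% in IgG2a tumours. The ranges overlapped. The means were 8.32 ± 4.94% in anti-PD-1 tumours and 8.87 ± 10.2% in IgG2a tumours (SD, n = 8 each), a difference of -0.548 ± 3.99 percentage points (SE, two-sided exact permutation p = 0.929). Over the 6 measures of usage and evenness tested in this way, the Benjamini-Hochberg adjusted p was 0.952 for each. IgG2a replicate 7 had 33.1% (95% Wilson interval 25.6 to 41.5%), and without it the difference was 2.91 points (exact p = 0.194). Anti-PD-1 replicate 6 had 0 of 125 V reads (Wilson interval up to 2.98%), although it had 125 reads of Trdc. With the 6 Tcrg-V genes counted, that tumour had 4.58%, and the group means were 11.3 ± 5.12% in anti-PD-1 tumours and 11.6 ± 11.2% in IgG2a tumours.

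**Figure D3:**
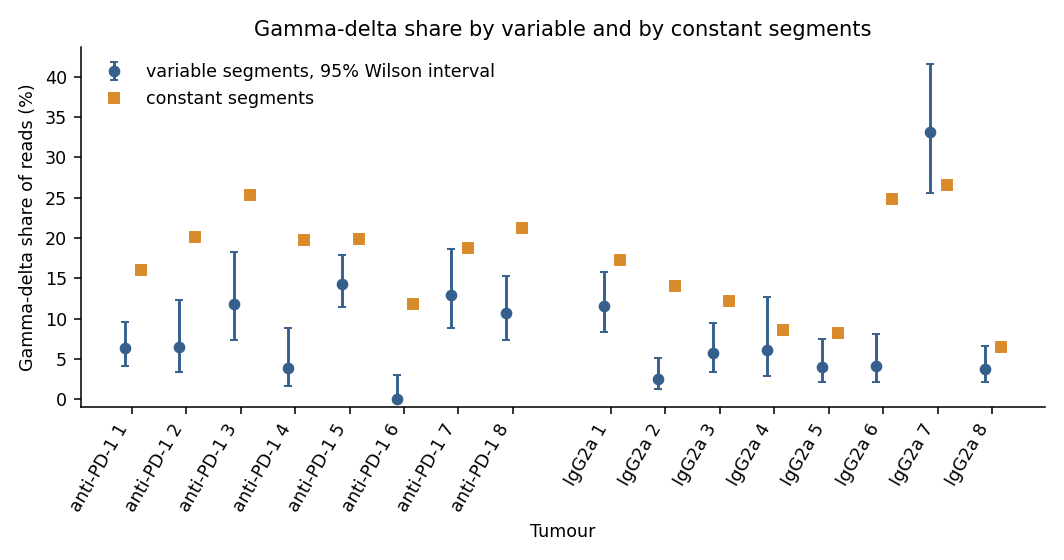
Gamma-delta share (y axis, percent) in each tumour by V segments (circles, with 95% Wilson intervals for counting error) and by constant segments (squares), anti-PD-1 on the left and IgG2a on the right. The V share ranges from 0% in anti-PD-1 replicate 6 to 33.1% in IgG2a replicate 7, and the constant share lies above it in every tumour except IgG2a replicate 7. Reads are not scaled for transcript length, so the heights of the V and constant shares cannot be set against each other.

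Constant segments, which every receptor of a chain shares, held more reads than V segments. There were 21.6 ± 7.03 V reads per 100 constant-segment reads in anti-PD-1 tumours and 29.6 ± 8.65 in IgG2a tumours (SD, n = 8 each). Anti-PD-1 replicate 6 was the lowest at 7.98. The gamma-delta share of constant reads (Trdc and the Tcrg-C genes over all constant reads) was 19.1 ± 3.93% in anti-PD-1 tumours and 14.8 ± 7.58% in IgG2a tumours. The difference was 4.35 points (exact permutation p = 0.169). These ratios use reads not scaled for transcript length: Trdc had 1262 reads at a mean of 0.346 TPM, and Trac 4441 at 6.95 TPM. The constant share is therefore not on the scale of the V share, and their heights cannot be compared. The estimates of all 7 constant genes tested lay above 0, beside 43.1% of all genes, and 0 passed edgeR's test, DESeq2's or limma-voom's. At an unadjusted p under 0.05 there was 1 of the 7, beside 11.4% of all genes: Trdc, with a log2 fold change of 1.06 ± 0.477 (SE, edgeR adjusted p = 0.434). Among the alpha and beta constant genes, that of Trbc2 was 0.642 ± 0.469, of Trbc1 0.388 ± 0.432 and of Trac 0.178 ± 0.392 (edgeR adjusted p = 0.51, 0.664 and 0.837 in that order). Among the gamma constant genes, that of Tcrg-C1 was 1.02 ± 0.653, of Tcrg-C2 0.585 ± 0.63 and of Tcrg-C4 0.452 ± 0.702 (adjusted p = 0.468, 0.653 and 0.764 in that order).

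Evenness of usage was measured within each tumour. The effective number of segments is the count of equally used segments that would give the same chance of 2 reads sharing a segment. For Trbv its lowest, median and highest values were 3.31, 6.34 and 11.2 in anti-PD-1 tumours, against 2.26, 5.94 and 10.2 in IgG2a tumours. The groups overlapped almost fully, with IgG2a replicate 6, led by Trbv14, at the low end and anti-PD-1 replicate 5 at the high end. The means were 6.86 ± 2.60 in anti-PD-1 tumours and 6.11 ± 3.10 in IgG2a tumours (SD, n = 8 each), differing by 0.744 ± 1.43 (SE, exact permutation p = 0.602).

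For Trav the effective number ran from 4 to 20.6 with a median of 12.3 in anti-PD-1 tumours, and from 4.69 to 26.1 with a median of 12.1 in IgG2a tumours. Its means were 12.9 ± 4.79 in anti-PD-1 tumours and 14.2 ± 8.90 in IgG2a tumours, differing by -1.33 ± 3.57 (SE, exact permutation p = 0.706). The Trav number depends on how reads were divided among near-matching copies, so its height cannot be set against that of Trbv. With copies merged by family number, the Trav difference was -0.472 (exact permutation p = 0.656). Pielou evenness of Trbv, which is 1 when all segments present are used alike, averaged 0.824 ± 0.0908 in anti-PD-1 tumours and 0.789 ± 0.134 in IgG2a tumours (exact permutation p = 0.547). In 51 Trbv reads drawn from each tumour, the expected number of segments was 11.6 ± 2.30 in anti-PD-1 tumours and 10.6 ± 2.27 in IgG2a tumours (exact permutation p = 0.42). In 16 Trav reads it was 9.67 ± 1.71 in anti-PD-1 tumours and 9.73 ± 2.22 in IgG2a tumours (exact permutation p = 0.952). None of these differences was larger than the spread between tumours, and equal usage was not shown: the SE of the Trbv effective number leaves room for differences of several segments.

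**Figure D4:**
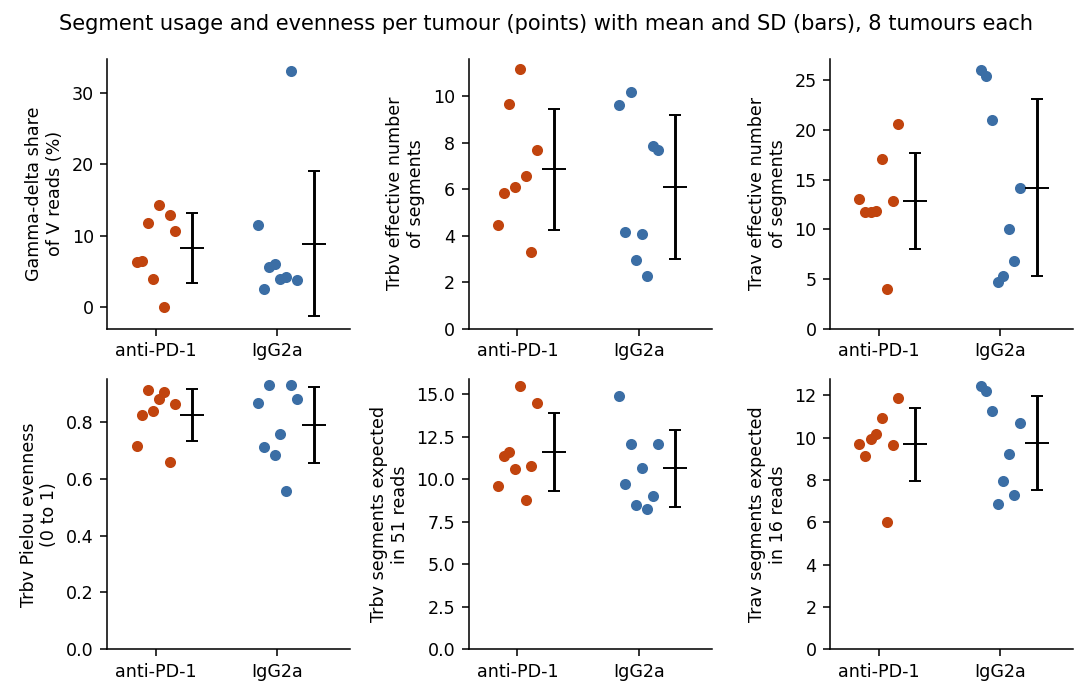
The 6 usage and evenness measures (y axes, units in the labels) for each tumour, anti-PD-1 left and IgG2a right in each panel; points are tumours, and the black bars are the mean and SD of 8 tumours. The groups overlap in every panel, and the isolated high point is the 33.1% gamma-delta share of IgG2a replicate 7.

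In the test of single genes, 2 of the 170 segments, Trbv16 and Trbv14, passed the filter on low counts, and the other 168 did not. Neither was called by edgeR's quasi-likelihood test, in which 0 of 16154 genes (0%) had an adjusted p under 0.05 and 11.4% had an unadjusted p under 0.05. Neither had an unadjusted p under 0.05 with edgeR, DESeq2 or limma-voom. With no filter beyond 1 read, 121 segments were tested and 0 called, with 59 estimates above 0 and 62 below. Of the 121, 21 had an unadjusted p under 0.05, where 15.4% of all 27933 genes did. The smallest adjusted p over those genes was 0.321.

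Summing the segments of a locus removes the division among copies. The summed Trbv reads had a log2 fold change of 0.037 ± 0.324 (SE, edgeR, 95% interval -0.648 to 0.722, adjusted p = 0.963) and the summed Trav reads one of -0.167 ± 0.422 (-1.06 to 0.725, adjusted p = 0.861). The Trdv sum and Trgv, which is Trgv2 alone, did not pass the filter on low counts. With no filter beyond 1 read, Trdv had a log2 fold change of -0.094 ± 1.03 and Trgv one of 0.846 ± 0.9 (SE, edgeR adjusted p = 0.979 and 0.65 in that order). Trgv2 summed with the 6 Tcrg-V genes, an addition made after seeing the data, passed the filter. Its log2 fold change was 0.57 ± 0.645 (-0.794 to 1.93, adjusted p = 0.67). The Trbv interval leaves out a change of 1 log2 unit in both directions, while those of Trav and of the gamma genes do not.

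Tumours with more V reads also had more Cd3e, which encodes a chain of the CD3 complex that carries both kinds of receptor. Over the 16 tumours, log2 of CPM plus 0.1 of summed V segments and of Cd3e had a Pearson r of 0.91 and a Spearman rho of 0.906 (permutation p = 1e-05 for each, the smallest 100000 resamples can give). This was the one relation between measures tested across tumours. Without the 2 tumours farthest from the median of Cd3e, r was 0.894 (permutation p = 4e-05). Within anti-PD-1 tumours r was 0.967 (exact permutation p = 0.000446), and within IgG2a tumours it was 0.821 (exact p = 0.00853), where rho was 0.667 (exact p = 0.0831). Among the 10 tumours with animal numbers above 6100 r was 0.916 (permutation p = 1e-05), and among the 6 with numbers up to 6100 it was 0.903 (exact p = 0.0306) with a rho of 0.6 (exact p = 0.242). Both measures share a tumour's library size.

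**Figure D5:**
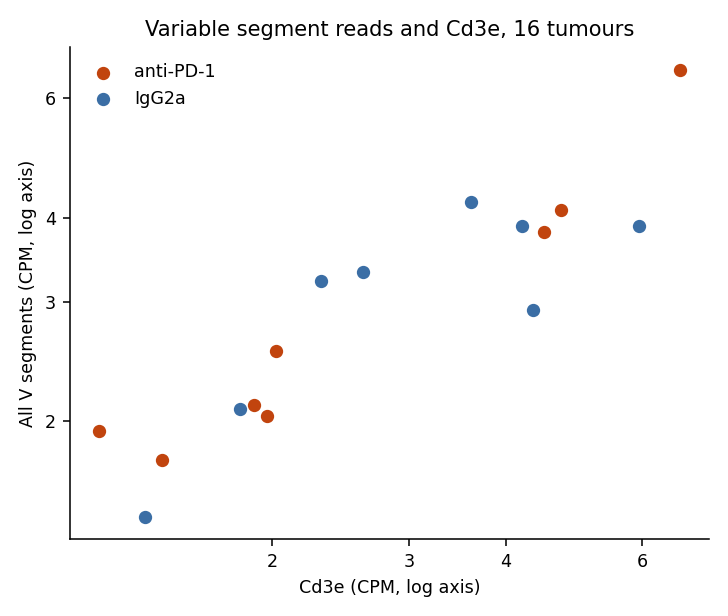
Summed V segments (y axis, CPM on a log axis) against Cd3e (x axis, CPM on a log axis), 1 point per tumour, anti-PD-1 and IgG2a in different colours. The points rise together (r = 0.91 on the log2 scale), with anti-PD-1 replicate 5 highest on both axes at 6.61 CPM of V segments and 6.72 CPM of Cd3e.

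Among 19 tested genes of the receptor complex and its signalling, 12 estimates lay above 0 and 7 below, beside 43.1% of all genes above 0. Of the 19, 0 were called and 0 had an unadjusted p under 0.05, beside 0% and 11.4% of all genes. Their median log2 fold change was 0.123, beside -0.055 over all genes. The log2 fold change of Cd3e itself was -0.104 ± 0.395 (SE, edgeR adjusted p = 0.908). Of the other CD3 chain genes, that of Cd3d was 0.738 ± 0.466, of Cd3g 0.534 ± 0.379 and of Cd247 -0.252 ± 0.273 (adjusted p = 0.464, 0.498 and 0.655 in that order). In anti-PD-1 replicate 6 these genes differed widely, with 77 reads of Cd3e, 438 of Cd3d, 471 of Cd3g and 103 of Cd247. T cell markers were read in every tumour, with 10 of 10 tested and a summed level of 19.4 to 77.8 CPM in anti-PD-1 tumours and 16.1 to 47.6 CPM in IgG2a tumours. Rag1 and Rag2, which join the segments in the thymus, had no read in any tumour. The other genes listed as thymocyte markers were read: Dntt had 194 reads over all tumours, Ptcra 26 and Cd1d1 5255.9. Of the Cd1d1 reads, 3198 were in IgG2a replicate 7. Of 8 tested genes used as markers of gamma-delta T cells, 6 estimates lay above 0 and 2 below, beside 43.1% of all genes above 0. Of the 8, 0 were called and 4 had an unadjusted p under 0.05, beside 0% and 11.4% of all genes. Those 4 went in both directions. They held Trdc and Cd163l1, with log2 fold changes of 1.06 and 1.63, and both estimates below 0, with Sox13 at -1.73. The Sox13 estimate leans on 1 tumour, since IgG2a replicate 7 held 1652 of its 2949 reads. The other IgG2a tumours had 45 to 189 Sox13 reads, and the anti-PD-1 tumours 28 to 261. The summed level of these markers was 3.75 to 19.2 CPM in anti-PD-1 tumours and 2.15 to 34.6 CPM in IgG2a tumours. The highest sum, in IgG2a replicate 7, included 1652 reads of Sox13, against 57 of Trdc, 41 of Cd163l1, 28 of Tcrg-C4, 25 of Tcrg-C1, 21 of Blk, 2 of Tcrg-C2 and 0 of Il17a.

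Libraries that stand apart touch some of these values. The lowest, median and highest sums of adipocyte markers were 4.24, 8.54 and 45.9 CPM in anti-PD-1 tumours, against 0.221, 7.02 and 2678 CPM in IgG2a tumours. The highest was IgG2a replicate 7, the tumour with the highest Trdv4 level and gamma-delta share. IgG2a replicate 3 had the highest summed skeletal muscle markers at 25679 CPM. In anti-PD-1 replicate 6, with no Trgv or Trdv read, 38934 transcripts were detected, the fewest of the 16 tumours. The part of these features in the segment values was not tested. Without these 3 tumours the gamma-delta share differed by 4.15 points, anti-PD-1 minus IgG2a (exact permutation p = 0.0653). In that setting 0 V segments were called, and 0 of all 16352 genes tested.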

How the data were processed

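Poly(A) RNA of 16 tumours was sequenced, 8 anti-PD-1 and 8 IgG2a, from RNA with an integrity number above 5 and non-directional libraries, per the labels' protocols. The authors deposited, per transcript, estimated counts that are not always whole, and TPM, per the file headers. Transcript length and effective length are further columns of the deposited tables. GRCm38, edgeR and limma are named in the submitters' processing notes. Which quantifier and annotation made the values is not given in the sources used here. Of member values above 0, 10.91% were not whole (tolerance 0.001), so reads shared between similar transcripts had been divided among them, and 78.3% of member values were 0. Member transcripts were 155 to 595 bases long, with a median of 344.

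Transcripts were matched by identifier to GENCODE vM21 of GRCm38 (114200 of 115088, in 47311 genes), leaving out 0.167 to 0.217% of a tumour's reads. Counts were summed over the transcripts of a gene, then rounded. Genes passing filterByExpr (minimum count 10, minimum total 15) were given TMM factors and tested in edgeR 4.0.16 (R 4.3.3) with its robust quasi-likelihood method and Benjamini-Hochberg adjustment over all genes tested, at a threshold of 0.05. Printed adjusted p-values are from it unless another tool is named. CPM used the same factors. A segment was detected at 1 estimated read or more. Measures per tumour were compared by two-sided exact permutation over 12870 assignments, whose smallest p is 0.00016. Copies were compared with blastn 2.17.0. DESeq2 1.42.0, limma-voom (limma 3.58.1), other factors and filters, animal-number ranges and left-out tumours were alternatives. The scripts that compute statistics were tested on simulated data.

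Segments named were, by a fixed rule, the highest in mean TPM of each locus among those read in 8 or more tumours, all Trgv and Trdv, the Trav and Trbv leader of each tumour, the tested segments, up to 6 with at least 50 reads and the largest share in 1 tumour, and segments known for T cell subsets. The members and lists were chosen with earlier results of these data known. Replicate numbers follow accession order and pair nothing. The single-gene values of 1 marker are not reported here.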

Additional observations from a re-analysis of the deposited data

Results flagged for a closer look

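In each group of 8 tumours, a tumour was picked out when its gap to the nearest other tumour as a share of the group's range exceeded Dixon's 95% critical value. Of 62 groups of values examined, 12 were picked out. Chance picks out about 1 in 20 groups, and many of these values are low read counts in which a single tumour easily stands apart.

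Anti-PD-1 replicate 5, the tumour with the most V reads, stood above its group for Trgv2 at 0.5832 CPM, and so for the Trgv sum at 0.5832 CPM, where the other 7 tumours reached 0.2113 CPM. It also stood above its group for Trbv5 at 0.7715 CPM, the others reaching 0.1859, and for Trbv2 at 0.4374 CPM, the others reaching 0.112.

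IgG2a replicate 7 had a gamma-delta share of 33.0769% of V reads, the other IgG2a tumours lying between 2.5208 and 11.5385%, and Trdv4 at 0.5939 CPM, the others reaching 0.2651.

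Trbv14 stood apart in anti-PD-1 replicate 1 at 0.8766 CPM, the others reaching 0.3718, and in IgG2a replicate 6 at 1.3658 CPM, the others reaching 0.5451. Trbv2 in IgG2a replicate 6 was at 0.1349 CPM, the others reaching 0.0402. Trav16 stood apart in anti-PD-1 replicate 1 at 0.1963 CPM, the others reaching 0.0549, and in IgG2a replicate 5 at 0.4902 CPM, the others reaching 0.228. In anti-PD-1 replicate 6 the Trav segments expected in 16 reads were 6.0, the other anti-PD-1 tumours lying between 9.1388 and 11.8873, and that tumour had 17 Trav reads in all.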

How the results depend on the processing

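No V segment was called under any alternative, and no difference between groups passed its threshold under any. Most alternatives tested only 2 V segments. Of all genes tested, 0 were called under each alternative but DESeq2, so the 0 is not particular to V segments. The Cd3e relation kept a Pearson p under 0.05 in every subset, but not a Spearman p within IgG2a (rho 0.667, exact p = 0.0831) or at animal numbers up to 6100 (rho 0.6, exact p = 0.242). Some differences (anti-PD-1 minus or over IgG2a) changed sign, and the cause was not tested. The gamma-delta share difference was 4.146 points without IgG2a 3 and 7 and anti-PD-1 6, which include the highest IgG2a and the lowest anti-PD-1 share. Leaving out each tumour gave -1.454 to 2.911. By constant segments, a different measure in reads not scaled for transcript length, the difference was 4.347 points. The Trav segments expected at equal reads differed by 0.065 with functional segments only, 0.314 without those 3 tumours and -0.473 to 0.465 leaving out each. The Trav effective number ran from -2.69 to 0.364 leaving out each. The log2 fold change of summed Trbv was -0.045 with limma-voom, -0.029 without the 3 tumours and -0.215 to 0.132 leaving out each. That of Trgv with Tcrg-V was -0.064 with limma-voom. Trbv16 gave 0.008 with upper-quartile factors, 0.005 with animal range as covariate and -0.243 to 0.229 leaving out each, Trbv14 -1.381 to 0.069, Trac -0.003 to 0.335 and Cd3e -0.375 to 0.073.

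The Tcrg-V genes, the family sums and the Trav9 share without each tumour (difference 11.96 to 21.25 points) were added after seeing the data. DESeq2 called 1 of 16154 genes, not a V segment. With a minimum count of 30, 0 segments were tested. No paired analysis was possible because the replicate numbers only follow accession order. At 98 to 453.6 V reads per tumour, single segments and small shares could not be compared closely.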
